A study of Mus musculus with 6 samples.

Results

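The collagen genes and the genes for collagen-modifying enzymes were taken by symbol from a table of 31017 genes measured in 4T1 cells grown in 3D collagen I gels. All 34 genes asked for were present: 21 collagen chains and 13 genes for hydroxylases, a glycosyltransferase, a chaperone and crosslinking oxidases. 4T1 is an established carcinoma line from a BALB/c mouse mammary tumour. The 3 ETV4 KO samples had been nucleofected with Cas9 and gene-specific guide RNAs, and the 3 control samples with Cas9 and control guide RNAs. Both groups were then embedded in collagen I gels, freed with collagenase I and lysed for poly(A) RNA. The ETV4 KO libraries carry the single code c39 and the controls the code sgCTRL. The labels do not say whether c39 is 1 clone, nor whether the 3 samples of a group came from separate cultures, so p-values measure only the spread between these samples.

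Collagens are trimers whose chains wind into a triple helix, and each type forms only from particular chains. In the endoplasmic reticulum, prolyl 4-hydroxylases stabilise the helix, lysyl hydroxylases and a galactosyltransferase modify lysines, and the chaperone HSP47 holds the folded trimer. Outside the cell, lysyl oxidases crosslink the assembled collagen. Fibroblasts make most of the fibrillar collagen of a mammary tumour, while epithelial cells are known for basement membrane and hemidesmosome-associated collagens. RNA-seq measures the cells' own transcripts and not the collagen I protein of the gel.

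The libraries held 22355015 to 29042569 counts. Levels are CPM, the counts relative to library size after scaling by TMM factors, and levels of different genes are set side by side only per kilobase of exon. Etv4, the targeted gene, had 87.4, 89.5 and 92.3 CPM in the ETV4 KO libraries and 133.5, 134.7 and 133.3 CPM in the controls, a log2 fold change of -0.58 (SE 0.036, adjusted p = 1.03e-14 by edgeR). The other expressed genes in its 10 Mb bin had a median of -0.46, and with that taken out Etv4 had -0.11 (adjusted p = 0.0074 by edgeR). Of 8 mammary epithelial markers the summed level was 4191.5 to 4392.5 CPM in ETV4 KO and 5577.6 to 5735.0 CPM in controls. Krt8 and Krt18 made up most of this sum, and Krt5 had 1 count per group. Of the 7 tested, 5 were called lower, from Cdh1 (log2 fold change -0.19) to Epcam (-1.37). Krt19 was called higher (0.13), and Krt7 was not called (-0.05). With the medians of their 10 Mb bins taken out, Krt14 (0.06) and Cdh1 (-0.06) lost their calls and Krt7 was called lower (-0.12). Krt8 (-0.55), Krt18 (-0.5), Epcam (-1.81) and Krt19 (0.6) kept theirs. Of 10 fibroblast markers the summed level was 14.0 to 15.9 CPM in ETV4 KO and 12.8 to 14.1 CPM in controls, most of it Pdgfra, and Thy1, Lum and Dpt had 0 counts in all 6 libraries. Pdgfra was called higher (log2 fold change 0.32, adjusted p = 0.00121 by edgeR) and Postn was called lower (-1.48, adjusted p = 3.65e-07 by edgeR). With the median of its 10 Mb bin taken out Pdgfra had 0.18 and was not called (adjusted p = 0.06 by edgeR). Fap had 8 counts in ETV4 KO and 19 in controls, whereas Pdpn had 16 in ETV4 KO and 1 in controls, and Acta2 had 13 and 7. The 6 macrophage and leukocyte markers summed to 9.41 to 11.4 CPM in ETV4 KO and 9.83 to 10.5 CPM in controls. Most of this was Cd68, which was not called (log2 fold change 0.05). Csf1r had 5 counts in ETV4 KO and 39 in controls, and Ptprc had 16 in ETV4 KO and 8 in controls. Adgre1 and Lyz2 had 0 counts in every library. The 5 endothelial markers summed to at most 0.314 CPM in ETV4 KO and 0.604 CPM in controls. In bulk RNA, fewer cells of a type and less RNA per cell cannot be told apart.

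Of the 34 genes 24 passed the filter on low counts and were tested, 14 chains and 10 modifying genes. By edgeR, with an adjusted p under 0.05, 13 of them were called higher in ETV4 KO and 6 were called lower. Of all 12076 tested genes 71.1% were called, 35.0% higher and 36.0% lower, so the 79.2% called among these 24 is near the background. The median log2 fold change of the 24 was 0.33, beside -0.004 over all tested genes. At least a 2-fold rise was called for Col5a1, Col27a1, P4ha2, Plod1 and Loxl4, and at least a 2-fold fall for Col4a5, Col4a6, Col6a2 and Loxl3. Over all tested genes 9.89% changed by that much, 3.87% higher and 6.02% lower. The genes passed the filter through 1 group alone in 2 cases, Col27a1 through ETV4 KO and Col4a6 through the controls, and such genes had to differ. For 20 of the 24 the values of the groups did not overlap, where the share over all tested genes was 72.7%. The other 10 genes were below 1 CPM on average in both groups and are given by their counts.

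**Figure D1:**
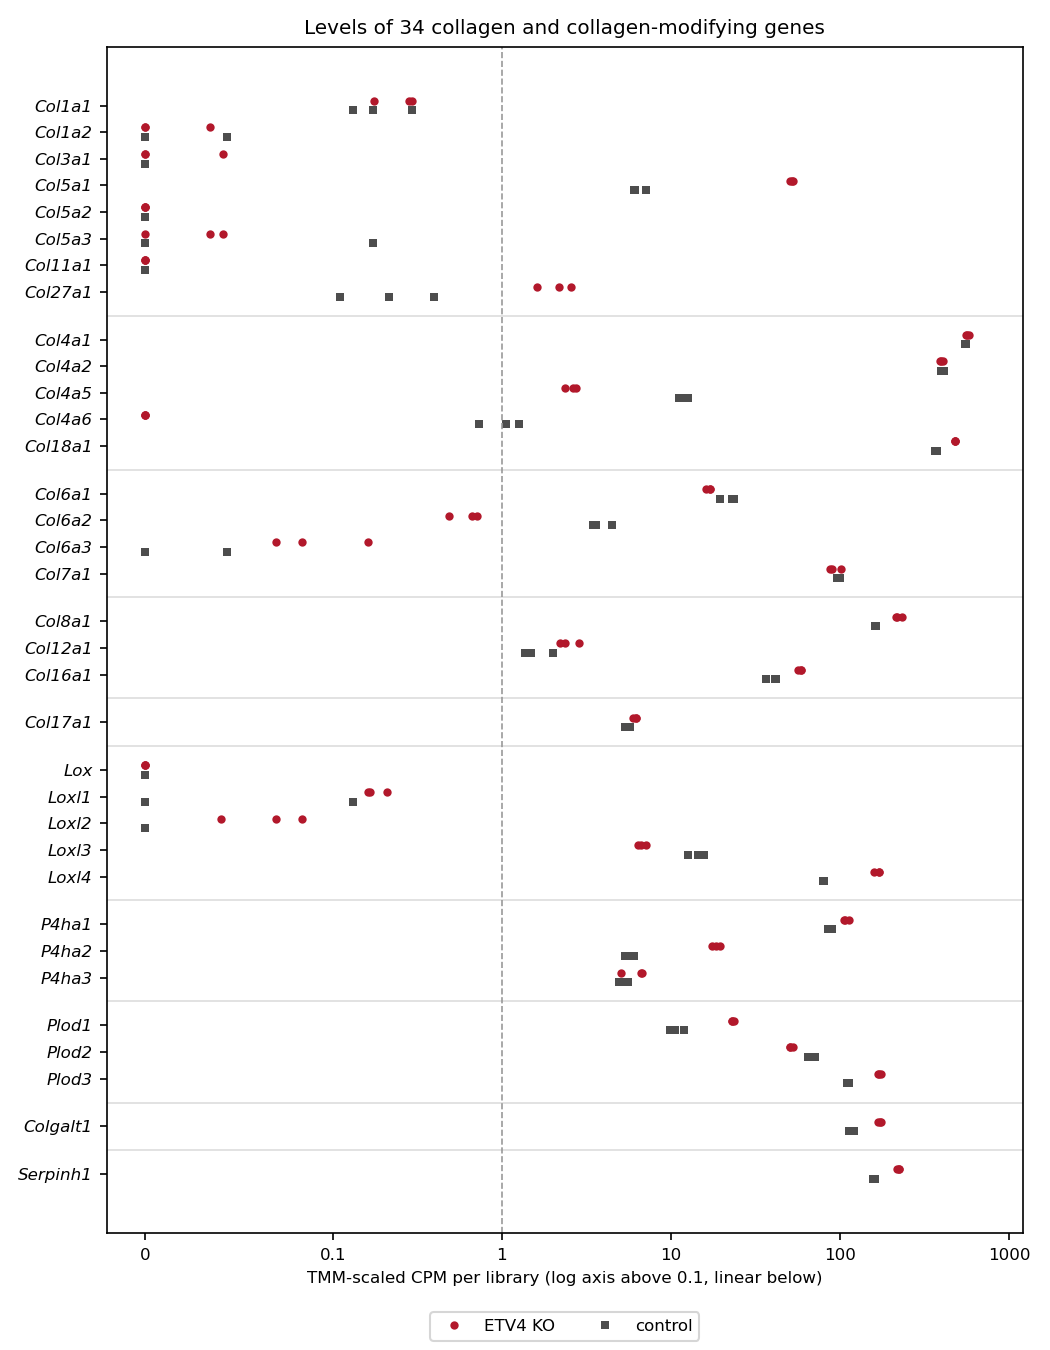
TMM-scaled CPM of each of the 34 genes in each library, with ETV4 KO as red circles above control as grey squares, genes grouped by class and a dashed line at 1 CPM. Col4a1, Col4a2 and Col18a1 lie above 300 CPM in every library, while Col5a2, Col11a1 and Lox lie at 0.

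Of 8 fibrillar chains only Col5a1 and Col27a1 were tested, and both rose, Col27a1 having passed the filter through ETV4 KO alone. Col5a1, which encodes the alpha1 chain of collagen V, a regulator of fibril diameter, had the highest level of them. It lies at chr2:27886425-28039514 on the plus strand of mm10. Col5a1 had 51.8, 52.5 and 50.8 CPM in the ETV4 KO libraries, against 7.16, 6.06 and 6.16 CPM in the controls. The 3 ETV4 KO values lie close together and far above all 3 control values. The log2 fold change was 3.01 (SE 0.067, adjusted p = 9.37e-26 by edgeR), or 8.03-fold.

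The alpha chains that partner Col5a1 in other tissues were at or near 0 in both groups. Col5a2, the usual second chain of collagen V, had 0 counts in all 6 libraries, which allows up to 0.0388 CPM in ETV4 KO and 0.0411 CPM in controls for counting error alone. Col11a1, a cartilage chain that can join collagen V, also had 0 counts throughout. Col5a3, another collagen V chain, had 2 counts over the ETV4 KO libraries and 4 over the controls. The main interstitial collagens were similarly low. Col1a1, the alpha1 chain of collagen I, had 5, 7 and 7 counts in ETV4 KO and 4, 8 and 3 counts in controls, and these values overlap. Its partner Col1a2 had 1 count in each group, and Col3a1, the collagen III chain, had 1 count in ETV4 KO and 0 in controls.

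Col27a1 encodes a fibrillar chain known from cartilage. Its level was low in both groups, with 1.61, 2.18 and 2.55 CPM in ETV4 KO and 0.216, 0.111 and 0.396 CPM in controls. The log2 fold change was 3.14 (SE 0.33, adjusted p = 1.45e-09 by edgeR). Col27a1 passed the filter through ETV4 KO alone, and such a gene had to differ, so neither this p nor the gap between the groups is independent support. The fold change rests on 161 counts in ETV4 KO and 17 in controls, and it ran from 2.76 to 3.67 when 1 library was left out. Per kilobase, Col5a1 stood at 6.09 CPM in ETV4 KO and 0.761 CPM in controls, above Col27a1 with 0.162 CPM in ETV4 KO and 0.0185 CPM in controls.

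Col4a1, Col4a2 and Col18a1, of the basement membrane, had the highest levels per kilobase of the 21 chains, and Col4a1 and Col4a2 did not pass the test. Col4a1 and Col4a2 encode the alpha1 and alpha2 chains of collagen IV, the network of every basement membrane. Col4a1 had 578.9, 553.4 and 566.1 CPM in ETV4 KO and 556.0, 548.2 and 552.9 CPM in controls. Col4a2 had 406.5, 393.9 and 392.3 CPM in ETV4 KO and 413.1, 412.2 and 398.0 CPM in controls. The values of both genes overlap between the groups, with log2 fold changes of 0.04 (SE 0.030, adjusted p = 0.299 by edgeR) and -0.04 (SE 0.031, adjusted p = 0.300 by edgeR). Both were sensitive to small shifts of scale: Col4a2 was called lower without any scaling beyond library size (-0.09) or when scaled by upper quartiles (-0.07). Col4a1 was called higher when the median change of neighbouring genes was taken out (0.07).

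The minor collagen IV chains Col4a5 and Col4a6 fell. They encode alpha5 and alpha6, which replace alpha1 and alpha2 in part in specialised epithelial basement membranes. Col4a5 (chrX:141475385-141689234, plus strand) had 2.76, 2.38 and 2.64 CPM in ETV4 KO and 11.2, 12.7 and 12.3 CPM in controls. Every ETV4 KO value was below every control value, with a log2 fold change of -2.21 (SE 0.11, adjusted p = 8.12e-17 by edgeR), that is 4.64-fold lower. Col4a6 (chrX:141165403-141474076, minus strand) had 0 counts in each ETV4 KO library and 17, 34 and 24 counts in the controls. Taking 3 counts in the whole ETV4 KO group as the floor, it was at least 26.5-fold lower (adjusted p = 2.80e-09 by edgeR). Col4a6 passed the filter through the controls alone, and such a gene had to differ. The remaining collagen IV chains Col4a3 and Col4a4, which are not among the 34, did not pass the filter in these cells.

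Per kilobase the collagen IV chains summed to 139.4, 134.0 and 135.5 CPM in ETV4 KO and 138.7, 137.8 and 136.2 CPM in controls, which overlap. Col4a5 made up 0.283% ± 0.016 of this sum in ETV4 KO and 1.30% ± 0.092 in controls (SD, n = 3 each). The ratio of Col4a1 to Col4a5 per kilobase was 197.0 ± 10.6 in ETV4 KO and 41.4 ± 3.06 in controls (SD, n = 3 each), with no overlap. The alpha5 and alpha6 transcripts were a minor part of the collagen IV mRNA in both groups, and a smaller one in ETV4 KO.

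Col18a1, the basement membrane collagen from which endostatin is cut, rose slightly. It had 477.6, 476.7 and 477.3 CPM in ETV4 KO and 373.6, 365.4 and 376.3 CPM in controls. The groups do not overlap, and the log2 fold change was 0.36 (SE 0.030, adjusted p = 9.80e-12 by edgeR), or 0.56 with the change of neighbouring genes taken out.

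The starts of Col5a1 and of the neighbouring pair Col4a5 and Col4a6 are shown because the knocked-out factor belongs to the ETS family, whose members bind DNA around a GGAA core. Each line runs 5′ to 3′ on the gene's own strand, from 250 bases before the RefSeq start site (build GRCm38.p6) to the first 6 transcribed bases. Capitals mark AGGAAG or CGGAAG on either strand, a pair of hexamers that cannot start at the same base of 1 strand.
Col5a1 (chr2:27886175-27886430, plus strand): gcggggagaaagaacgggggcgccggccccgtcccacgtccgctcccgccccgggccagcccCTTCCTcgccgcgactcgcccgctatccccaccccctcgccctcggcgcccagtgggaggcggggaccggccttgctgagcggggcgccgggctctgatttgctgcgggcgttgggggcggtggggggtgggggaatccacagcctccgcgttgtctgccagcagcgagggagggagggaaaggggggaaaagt
Col4a5 (chrX:141475169-141475424, plus strand): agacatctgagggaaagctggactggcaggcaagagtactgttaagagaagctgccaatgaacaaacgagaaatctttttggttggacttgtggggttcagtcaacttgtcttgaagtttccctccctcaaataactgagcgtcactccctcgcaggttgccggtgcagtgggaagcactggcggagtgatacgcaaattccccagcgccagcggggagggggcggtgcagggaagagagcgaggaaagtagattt
Col4a6 (chrX:141474071-141474326, minus strand): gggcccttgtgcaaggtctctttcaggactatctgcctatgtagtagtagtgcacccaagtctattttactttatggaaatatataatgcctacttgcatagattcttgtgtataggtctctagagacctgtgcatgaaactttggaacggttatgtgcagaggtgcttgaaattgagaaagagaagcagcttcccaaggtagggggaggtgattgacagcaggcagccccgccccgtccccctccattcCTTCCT

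The Col5a1 stretch, rich in G and C (75.0% over its 300-base window), holds 1 match at position -188 on the opposite strand. In Col4a6 a match, also on the opposite strand, covers the first 6 transcribed bases, and the Col4a5 window holds no match. GGAA outside AGGAAG and CGGAAG is not marked, and it occurs in each printed line, that of Col4a5 included. Of the other chains that changed at least 2-fold, Col27a1 has 1 match at position -3, and each of the 2 Col6a2 windows has 1 match, at -140 and at -72. Col4a5 and Col4a6 are transcribed away from each other from start sites 1343 bases apart. Col4a1 and Col4a2 are likewise divergent, with start sites 21 bases apart and exons that overlap by 22 bases. RefSeq windows of 300 bases, from 250 before to 50 after a start, were used for 26 of the 34 genes, 29 windows in all. Any window of Lox, on chromosome 18, was left out, while the windows of all mouse genes keep that chromosome. At least 1 match occurred in 44.8% of these 29 windows and in 46.5% of all 32851 mouse windows. For AGGAAG alone the shares were 27.6% and 35.4%, and for CGGAAG alone 17.2% and 16.9%. A match is a description of the letters and not a binding site.

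Collagen VI, a beaded filament collagen that links the basement membrane to the stroma, is built from alpha1, alpha2 and a larger chain. Col6a1 had 16.1, 17.0 and 17.0 CPM in ETV4 KO and 23.7, 19.5 and 23.1 CPM in controls. These values do not overlap, and the log2 fold change was -0.40 (SE 0.071, adjusted p = 1.15e-05 by edgeR), or -0.20 with the change of neighbouring genes taken out. Col6a2 (chr10:76595762-76623630, minus strand) fell further, to 0.664, 0.485 and 0.711 CPM in ETV4 KO against 3.62, 4.50 and 3.48 CPM in controls. Its log2 fold change was -2.64 (SE 0.22, adjusted p = 4.70e-12 by edgeR), from 48 counts in ETV4 KO and 285 in controls.

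The ratio of Col6a1 to Col6a2 per kilobase was 46.2, 66.8 and 45.4 in ETV4 KO and 12.4, 8.24 and 12.6 in controls. Col6a3, the usual larger chain, had 8 counts over the ETV4 KO libraries and 1 over the controls, too few for a test. Col7a1, the anchoring fibril collagen of epithelial basement membranes, had 87.2, 101.5 and 89.9 CPM in ETV4 KO and 97.9, 99.4 and 95.5 CPM in controls. These overlap, with a log2 fold change of -0.07 (SE 0.044, adjusted p = 0.142 by edgeR). Without ETV4 KO replicate 2, the highest library, it was called lower at -0.14 (adjusted p = 0.00191 by edgeR), as it was when scaled by upper quartiles (-0.11), without any factors (-0.12) and with the change of neighbouring genes taken out (-0.15).

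All 3 FACIT and short-chain network genes rose, each by less than 2-fold. Col8a1, a short-chain collagen known from endothelial and epithelial basement membranes, had the highest level of these per kilobase. It had 231.1, 217.9 and 215.4 CPM in ETV4 KO and 160.3, 164.1 and 161.1 CPM in controls, a log2 fold change of 0.45 (SE 0.034, adjusted p = 9.95e-13 by edgeR). Taking out the change of neighbouring genes gave 0.79. Col16a1, a fibril-associated collagen (FACIT), had 58.6, 56.2 and 58.6 CPM in ETV4 KO and 41.0, 41.7 and 36.6 CPM in controls, with a log2 fold change of 0.54 (SE 0.049, adjusted p = 5.71e-11 by edgeR). Col12a1, another FACIT, was low, with 2.49 CPM ± 0.334 in ETV4 KO and 1.63 CPM ± 0.347 in controls (SD, n = 3 each). Its log2 fold change was 0.63 (SE 0.19, adjusted p = 0.00509 by edgeR), and no control value reached the lowest ETV4 KO value.

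Col17a1, the transmembrane collagen of hemidesmosomes, had 6.18, 5.98 and 6.23 CPM in ETV4 KO and 5.69, 5.54 and 5.37 CPM in controls. The values do not overlap, yet the gene did not pass the test, with a log2 fold change of 0.15 (SE 0.11, adjusted p = 0.219 by edgeR), and 0.01 with the change of neighbouring genes taken out.

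Of the 21 chains 7 were below 1 CPM on average in both groups: Col1a1, Col1a2, Col3a1, Col5a2, Col5a3, Col11a1 and Col6a3. In ETV4 KO 9 were below 1 CPM, those and Col4a6 and Col6a2, and in controls 8 were, the 7 and Col27a1. Over all 44 collagen chains of the table, the level per kilobase summed to 265.9, 260.1 and 260.3 CPM in ETV4 KO and 236.8, 234.6 and 233.6 CPM in controls. Col4a1, Col4a2 and Col18a1 made up 28.9%, 22.9% and 25.9% of this sum in ETV4 KO, and 31.5%, 26.2% and 22.5% in controls. Col5a1 made up 2.33% ± 0.0476 in ETV4 KO and 0.324% ± 0.0283 in controls (SD, n = 3 each). Of the 23 chains outside the 34 only 3 were tested, beside 20 that missed the filter. Col20a1, a little-studied FACIT, fell to 0.552 CPM ± 0.0725 in ETV4 KO, against 2.97 CPM ± 0.254 in controls (SD, n = 3 each), by 2.41 on the log2 scale (SE 0.22, adjusted p = 8.73e-11 by edgeR). Col11a2, a cartilage chain, had -0.90 (SE 0.27, adjusted p = 0.00455 by edgeR), and Col8a2, the partner of Col8a1, had 0.48 without a call (adjusted p = 0.114 by edgeR). With the change of neighbouring genes taken out Col8a2 had 0.72 and was called (adjusted p = 0.0215).

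**Figure D2:**
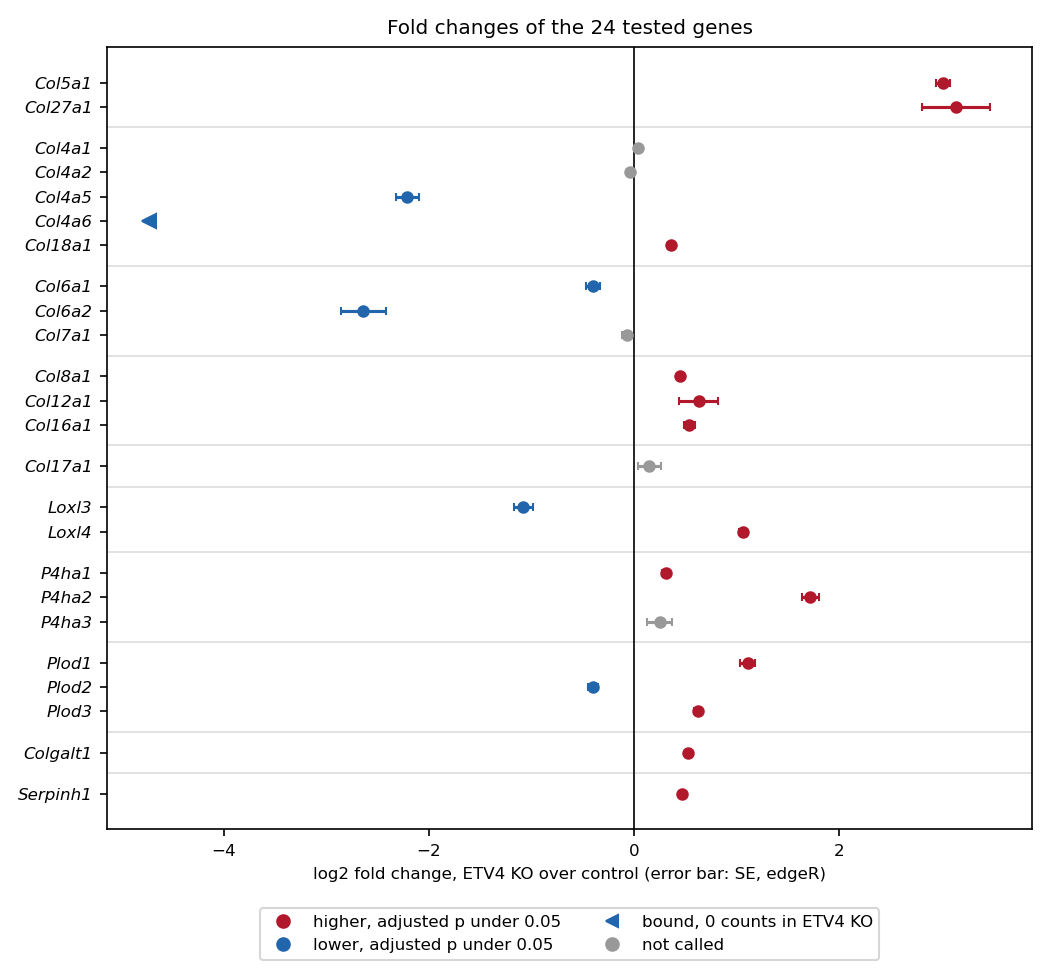
Log2 fold change of ETV4 KO over control with its SE for the 24 tested genes, grouped by class; red points were called higher, blue points lower and grey points were not called, and the triangle marks the bound for Col4a6. Col5a1 and Col27a1 lie near 3, whereas Col4a1 and Col4a2 lie beside 0.

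Of the 3 prolyl 4-hydroxylase alpha subunit genes 2 rose. P4ha1, P4ha2 and P4ha3 encode alternative catalytic alpha subunits of prolyl 4-hydroxylase. P4ha2 (chr11:54100095-54131665, plus strand) had 17.5, 19.6 and 18.6 CPM in ETV4 KO and 6.04, 5.32 and 5.59 CPM in controls. All ETV4 KO values lie above all control values, with a log2 fold change of 1.72 (SE 0.086, adjusted p = 5.31e-17 by edgeR), or 3.29-fold. This rise stands on chromosome 11, where the other expressed genes of the same 10 Mb bin had a median log2 fold change of -0.36.

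P4ha1, the major form, had 106.9, 112.4 and 105.5 CPM in ETV4 KO and 84.6, 89.6 and 88.4 CPM in controls, with a log2 fold change of 0.31 (SE 0.038, adjusted p = 3.64e-08 by edgeR). P4ha3 had 6.67, 6.79 and 5.06 CPM in ETV4 KO and 5.13, 4.95 and 5.59 CPM in controls. These overlap through ETV4 KO replicate 3, and the gene was not called, with 0.25 (SE 0.12, adjusted p = 0.0641 by edgeR). Without that replicate it was called at 0.37 (adjusted p = 0.00849 by edgeR), and it was also called with no low-count filter (adjusted p = 0.0463). With the change of neighbouring genes taken out its log2 fold change was -0.02.

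P4ha1 supplied most of the alpha subunit mRNA per kilobase, 84.2% ± 0.545 in ETV4 KO and 89.2% ± 0.652 in controls (SD, n = 3 each). The share of P4ha2 was 9.08%, 9.63% and 9.87% in ETV4 KO and 4.17%, 3.52% and 3.71% in controls, which do not overlap. The 3 alpha subunits together summed to 31.3 CPM ± 1.23 per kilobase in ETV4 KO and 23.8 CPM ± 0.587 in controls (SD, n = 3 each).

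The lysyl hydroxylases went both ways. Plod1, which hydroxylates lysines of the helix, had 23.7, 23.1 and 22.9 CPM in ETV4 KO and 10.6, 9.82 and 12.0 CPM in controls. It lies at chr4:147909753-147936767 on the minus strand, and its log2 fold change was 1.11 (SE 0.073, adjusted p = 3.03e-14 by edgeR). Plod3, which also carries glycosyltransferase activity and had the highest level per kilobase of the family, had 167.7, 169.4 and 174.2 CPM in ETV4 KO and 109.8, 113.1 and 110.6 CPM in controls. Its log2 fold change was 0.62 (SE 0.035, adjusted p = 9.54e-16 by edgeR), and 0.38 with the change of neighbouring genes taken out.

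Plod2 hydroxylates the lysines of the telopeptides, the short ends at which fibrils are crosslinked. It had 50.6, 52.4 and 50.7 CPM in ETV4 KO and 71.4, 66.6 and 64.7 CPM in controls, with a log2 fold change of -0.40 (SE 0.045, adjusted p = 3.63e-09 by edgeR). The groups do not overlap. The other expressed genes in its 10 Mb bin had a median of -0.33, and with that median taken out Plod2 had -0.07 and was not called (adjusted p = 0.158 by edgeR).

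As a share of the lysyl hydroxylase mRNA per kilobase, Plod2 made up 18.8% ± 0.442 in ETV4 KO and 32.4% ± 1.33 in controls (SD, n = 3 each). Plod3 made up 74.5% ± 0.557 in ETV4 KO and 63.5% ± 1.22 in controls, and Plod1 6.79% ± 0.204 in ETV4 KO and 4.13% ± 0.465 in controls (SD, n = 3 each). For none of these shares did the groups overlap. With 3 samples against 3 an exact permutation test cannot give a p below 0.1, so the shares are given without a test.

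Colgalt1, the galactosyltransferase that glycosylates hydroxylysine, and Serpinh1, which encodes HSP47, both rose. Colgalt1 had 173.4, 166.8 and 174.1 CPM in ETV4 KO and 121.3, 113.3 and 121.4 CPM in controls, a log2 fold change of 0.53 (SE 0.037, adjusted p = 9.09e-14 by edgeR). Serpinh1 had 217.1, 224.2 and 222.1 CPM in ETV4 KO and 160.4, 159.7 and 157.2 CPM in controls, a log2 fold change of 0.47 (SE 0.033, adjusted p = 1.08e-13 by edgeR). For both genes each ETV4 KO library was above each control library. Serpinh1 had a log2 fold change of 0.17 with the change of neighbouring genes taken out, its bin having a median of 0.31. Per kilobase Serpinh1 had the highest level of the 13 modifying genes, 90.5 CPM in ETV4 KO and 65.1 CPM in controls.

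Among the crosslinking enzymes only Loxl3 and Loxl4 passed the filter, and they moved in opposite directions. Loxl4 (chr19:42593982-42612813, minus strand) had 170.0, 169.9 and 159.7 CPM in ETV4 KO and 79.0, 79.9 and 80.4 CPM in controls. The groups lie far apart, with a log2 fold change of 1.06 (SE 0.037, adjusted p = 6.92e-21 by edgeR). Loxl3 (chr6:83034173-83052562, plus strand) had 6.64, 6.42 and 7.11 CPM in ETV4 KO and 14.4, 12.7 and 15.6 CPM in controls, a log2 fold change of -1.08 (SE 0.092, adjusted p = 1.19e-11 by edgeR).

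Exons of Loxl3 overlap 535 bases of Htra2 on the opposite strand. Htra2 held 10146 counts over the 6 libraries against 1552 for Loxl3, and it had a log2 fold change of -0.51 (SE 0.055, adjusted p = 1.68e-09 by edgeR). The library kit keeps strand, but the strand setting of the counting is not given, so the Loxl3 value is uncertain. The same holds for Plod3 beside Znhit1, which had 7148 counts against 21280 for Plod3, and for Colgalt1 beside Unc13a, with 396 counts against 21896.

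Loxl4 made up 96.4%, 96.5% and 95.9% of the lysyl oxidase mRNA per kilobase in ETV4 KO and 85.7%, 87.3% and 84.8% in controls. The family summed to 41.1 CPM ± 1.33 per kilobase in ETV4 KO and 22.0 CPM ± 0.403 in controls (SD, n = 3 each). Lox itself, the founding member, had 0 counts in all 6 libraries. Loxl1 had 6, 4 and 4 counts in ETV4 KO and 0, 0 and 3 counts in controls, and Loxl2 had 2, 1 and 2 counts in ETV4 KO and 0 in each control. These counts are too low for a test.

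**Figure D3:**
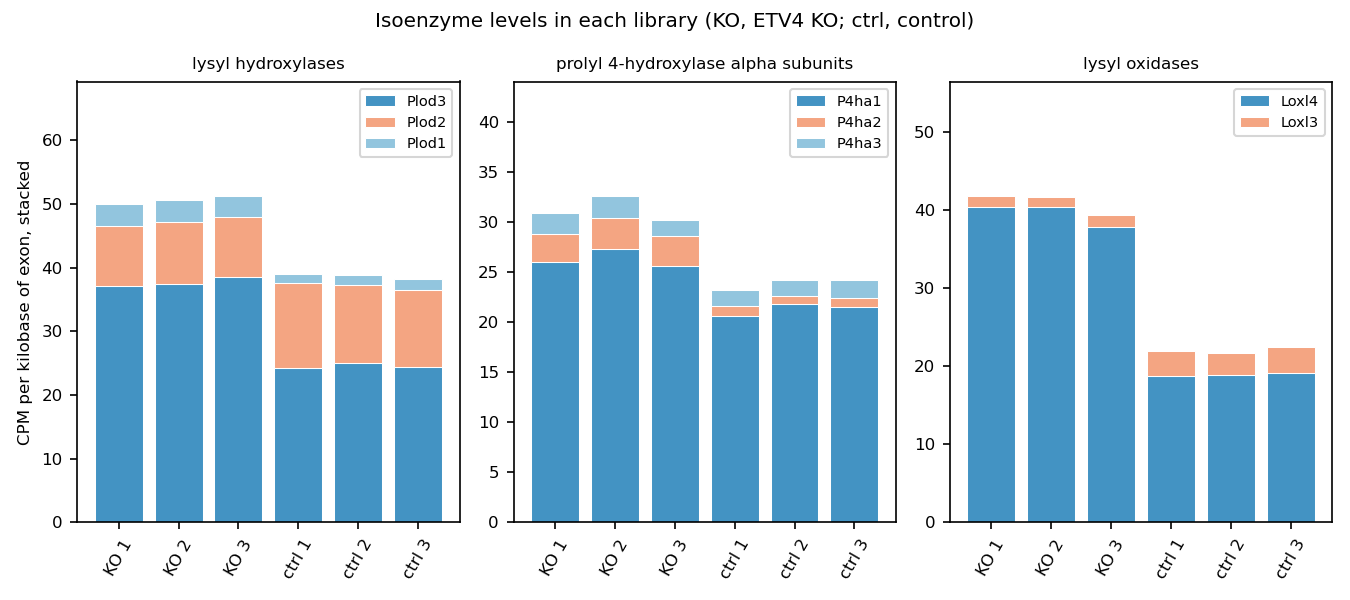
Level per kilobase of exon of each isoenzyme, stacked, in each library, for the lysyl hydroxylases, the prolyl 4-hydroxylase alpha subunits and the lysyl oxidases above 1 CPM. All 3 families sum higher in the ETV4 KO libraries, on the left, and Loxl4 and Plod3 take larger shares there while Plod2 and Loxl3 take smaller ones.

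Other genes of collagen folding came from a list of 15, of which 13 were tested. In this list 8 rose and 1 fell, a share called of 69.2% where that over all tested genes was 71.1%, with a median log2 fold change of 0.41. The general lectin chaperone Calr rose to 1383.9 CPM ± 10.6 in ETV4 KO, against 810.5 CPM ± 12.0 in controls (SD, n = 3 each), by 0.77 on the log2 scale (SE 0.030, adjusted p = 6.80e-20 by edgeR). Changes of the other pathway genes are on the same scale. The disulfide isomerase Pdia3 rose by 0.51 (SE 0.030, adjusted p = 3.64e-15 by edgeR). Fkbp14, a prolyl isomerase that acts on collagen, fell to 1.01 CPM ± 0.249 in ETV4 KO, against 2.36 CPM ± 0.331 in controls, with -1.24 (SE 0.22, n = 3 each, adjusted p = 1.05e-05 by edgeR). The prolyl 3-hydroxylase genes P3h1, P3h2 and P3h3, named after their values were seen, were called higher with 0.35, 0.99 and 0.47. P3h4, of the same family, had 0.21 and was not called. With the change of neighbouring genes taken out P3h4 had 0.68 and was called higher (adjusted p = 2.55e-05 by edgeR). On that basis P3h1, P3h2 and P3h3 had 0.51, 1.14 and 0.65. P4hb, the beta subunit shared by all prolyl 4-hydroxylases and named after its value was seen, had -0.02 (SE 0.031, adjusted p = 0.650 by edgeR). With the change of neighbouring genes taken out, a bin median of -0.53, P4hb had 0.52 and was called higher (adjusted p = 6.51e-15).

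Of 12 genes for procollagen export, all tested, 4 rose and 6 fell, a share called of 83.3% beside 71.1% over all tested genes, with a median of -0.04. The coat subunit Sec24d rose by 0.68 (SE 0.036, adjusted p = 1.58e-16 by edgeR) and the cargo adaptor Mia2 by 0.23 (SE 0.037, adjusted p = 2.39e-06 by edgeR). The organiser of exit sites Tfg had -0.54 (SE 0.039, adjusted p = 2.28e-13 by edgeR) and the tethering subunit Trappc1 -0.58 (SE 0.063, adjusted p = 2.40e-09 by edgeR). Trappc1 lies on chromosome 11 and had -0.21 with the change of neighbouring genes taken out, and there Tfg had -0.25, Mia2 0.11 and Sec24d 0.43.

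Among 10 genes that trim procollagen ends 4 were tested, 2 of them higher and 1 lower (75.0% called, beside 71.1% over all tested genes), with a median of 0.04. Pcolce, an enhancer of C-propeptide cleavage, rose to 58.8 CPM ± 1.92 in ETV4 KO, against 30.0 CPM ± 1.00 in controls (SD, n = 3 each), by 0.97 (SE 0.049, adjusted p = 5.27e-17 by edgeR). Its homologue Pcolce2 rose by 0.11 (SE 0.036, adjusted p = 0.00765 by edgeR), and 0.49 with the change of neighbouring genes taken out. The N-propeptidase Adamts14 had -0.39 (SE 0.048, adjusted p = 2.31e-08 by edgeR).

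Of 16 regulators of fibril assembly 7 were tested, and 6 rose and 1 fell, with a median of 0.82. Over all tested genes 71.1% were called, 35.0% higher and 36.0% lower. Sparc, a collagen-binding matrix protein, rose to 124.5 CPM ± 2.27 in ETV4 KO, against 24.4 CPM ± 0.41 in controls (SD, n = 3 each), by 2.35 (SE 0.044, adjusted p = 1.03e-27 by edgeR). Tnxb, which encodes tenascin X, rose to 8.38 CPM ± 0.45 in ETV4 KO, against 0.149 CPM ± 0.0545 in controls (SD, n = 3 each). The rise was 5.75 (SE 0.23, adjusted p = 1.59e-19 by edgeR), with 11 counts over the controls. Tnxb passed the filter through ETV4 KO alone, and such a gene had to differ. Thbs1, thrombospondin 1, had -0.45 (SE 0.033, adjusted p = 4.13e-13 by edgeR). Tgm2, the crosslinking transglutaminase, was named after its value was seen and rose by 1.23 (SE 0.086, adjusted p = 1.26e-13 by edgeR). The small proteoglycans Lum and Fmod, which coat fibrils, had 0 counts in every library. Other untested genes of this list, named after their values were seen, were not all at 0. Bgn had 14 counts in ETV4 KO and 0 in controls, Aspn had 8 and 2, and Comp had 4 and 7.

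Of 10 collagen receptors 6 were tested, 3 higher and 3 lower, with a median of 0.07, where 71.1% of all tested genes were called. The largest change in this list, named after its value was seen, was that of Itga1, an alpha subunit of a collagen-binding integrin. It rose to 3.49 CPM ± 0.53 in ETV4 KO, against 1.54 CPM ± 0.119 in controls, by 1.19 (SE 0.18, n = 3 each, adjusted p = 7.33e-07 by edgeR). Ddr1, a receptor tyrosine kinase for collagen, rose to 115.9 CPM ± 2.64 in ETV4 KO, against 76.7 CPM ± 1.87 in controls (SD, n = 3 each), by 0.60 (SE 0.038, adjusted p = 1.41e-14 by edgeR). With the change of neighbouring genes taken out it had 0.30. Itgb1, the beta subunit of the collagen-binding integrins, rose by 0.28 (SE 0.029, adjusted p = 9.42e-10 by edgeR). The related kinase Ddr2 had -0.31 (SE 0.036, adjusted p = 5.45e-09 by edgeR), and Itga2, the alpha subunit of the main epithelial collagen integrin, had -0.14 (SE 0.038, adjusted p = 0.00196 by edgeR) and -0.31 with the change of neighbouring genes taken out.

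The expressed genes around the 24 tested genes had moved as well, with 10 Mb bin medians between -0.36 and 0.31. With the bin medians taken out, Col5a1 had 2.84, Col27a1 3.31, Col4a5 -1.94, Col6a2 -2.44, P4ha2 2.08, Plod1 1.25, Loxl3 -0.83 and Loxl4 0.94, and each kept its call. Of the 19 called genes only Plod2 lost its call in this way. Whether a shared local change contributes to the smaller differences was not tested.

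**Figure D4:**
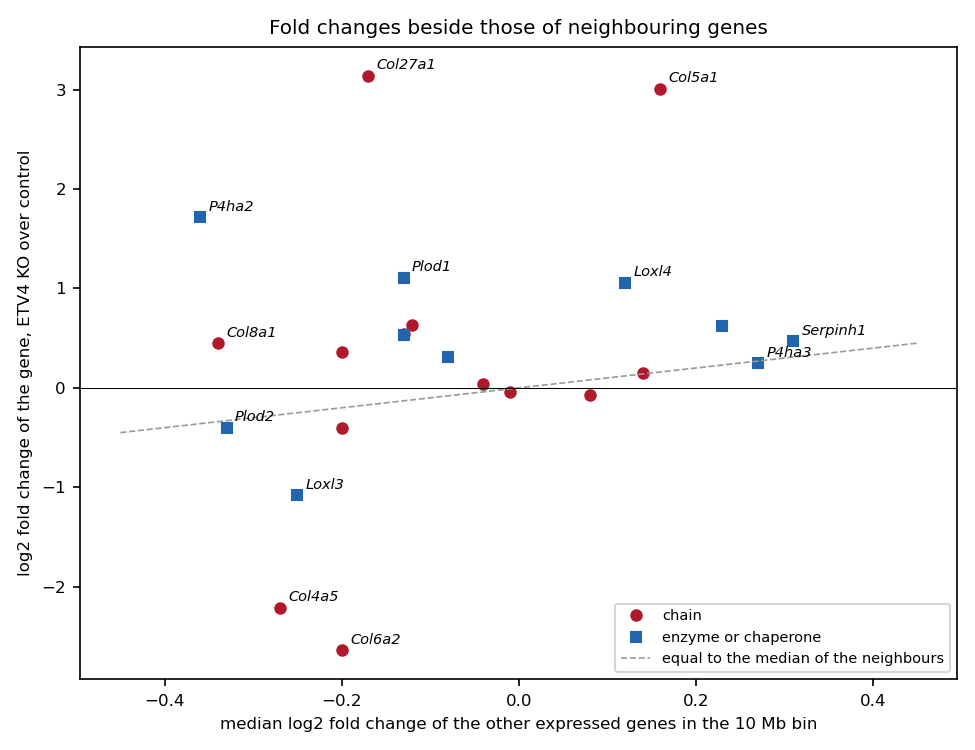
Log2 fold change of each tested gene but Col4a6 (vertical axis) against the bin median of its expressed neighbours within 10 Mb (horizontal axis), with chains as red circles, modifying genes as blue squares and a dashed line of equality. Plod2 and P4ha3 lie beside the line, while Col5a1, Col27a1, P4ha2, Col4a5 and Col6a2 lie far from it.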

How the data were processed

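Poly(A) RNA was measured in 3 ETV4 KO and 3 control samples, grouped by title. Columns were matched by library name. The authors deposited raw read counts per gene symbol, unnormalized. Tools listed, per the submitters' processing notes, are STAR 2.7.9a, featureCounts, FastQC 0.11.9 and R 4.1.1; mm10 and hg38 are listed as builds without their roles. For annotation, strand setting and multi-mapped reads nothing is given in the sources used here.

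Counts were analysed with edgeR 4.0.16, limma 3.58.1 and DESeq2 1.42.0 in R 4.3.3. Genes passed filterByExpr (minimum count 10, minimum total 15), TMM factors were computed, and glmQLFTest compared the groups without a replicate block. P-values were adjusted by Benjamini-Hochberg over 12076 genes and called under 0.05. Each SE was obtained from the fold change (log2, absolute) and F, as their quotient after taking F's square root. Levels per kilobase use the union of exons in GENCODE M21 (mm10), which gave 1 position for 30416 of 31017 symbols. The bin alternative offsets each gene by the median log2 fold change of the other genes of its 10 Mb bin (edgeR log2 CPM above 3; its chromosome where fewer than 10), taken as known. Ccn2 was found as Ctgf. Genes and lists were chosen with earlier results of these data known. The rule for named genes asked for values per library for called genes among the 34 with at least a 2-fold change, chain partners and the highest gene of each class. From each other list it named up to 2 called genes per direction with the smallest adjusted p, given here by mean or fold change. Some genes named outside it are marked, but others, Col8a2, Lum and Fmod among them, are not. Values per library are also given outside it for Col18a1, Col16a1, Plod2 and P4ha3.

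On simulated counts for this comparison, 11892 genes tested, edgeR recovered 50.0% of genes changed 1.2-fold, 83.7% of those changed 1.5-fold, 91.8% of those changed 2-fold and 100% of those changed 4-fold. It called 8 of 11698 unchanged genes. Unchanged genes made up most of those 11892, whereas in the data 71.1% of the 12076 tested genes were called. Whether these shares hold with so many genes called was not tested. Alternatives are given in the closing section. Pearson's r of log2 CPM between libraries was 0.9978 to 0.9981 within groups and 0.9688 to 0.9699 between them. Counting bounds cover counting error only.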

Additional observations from a re-analysis of the deposited data

How the results depend on the processing

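Of the 19 called genes 9 kept their direction and call under each of the 17 alternatives that tested them, and 18 did so under all but the test against a 1.5-fold change (glmTreat); the exception was Plod2 with the bin medians taken out. Of 407 pairs of a tested gene and an alternative 386 were on the same side of the threshold, 11 lost a call, 10 gained one and 0 called changes reversed. GlmTreat called 1684 genes, 735 higher and 949 lower, against 8582, 4232 and 4350. It called 9 of the 24, 5 of them higher, and 13 of the other collagen pathway genes, 10 higher and 3 lower, against 48, 28 and 20. The remaining alternatives (RLE, upper-quartile and no factors, DESeq2, limma-voom, 2 filters, an adjusted p under 0.01, each library left out) kept these counts within 1.5 times. The median log2 fold change of all tested genes, -0.004, lay between -0.055 (library size only) and -0.001 under these alternatives, and was -0.018 with the bin medians taken out. Same-numbered libraries of the 2 groups had correlations of their deviations of 0.229, 0.234 and -0.00805, and differently numbered ones had -0.304 to 0.114. The libraries numbered 3 did not stand out and the labels state no pairing, so the numbers were not taken as pairs. The replicate block kept all counts within 1.5 times and added P4ha3 (log2 fold change 0.25, adjusted p = 0.0487). Depth limits the 10 untested genes, each under 1 CPM.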

Other observations

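Of 18 regulators of collagen transcription 16 were tested, 5 higher and 6 lower (68.8% called, beside 71.1% over all tested genes), with a median log2 fold change of -0.02. This list was drawn from general knowledge, but with earlier results of these data known. Tgfbr2, a TGF-beta receptor, rose to 287.7 CPM ± 4.50 in ETV4 KO, against 181.7 CPM ± 5.03 in controls (SD, n = 3 each), by 0.66 on the log2 scale (SE 0.033, adjusted p = 4.71e-17 by edgeR). The hypoxia factor Hif1a rose by 0.33 (SE 0.040, adjusted p = 1.97e-08 by edgeR), and 0.21 with the bin medians taken out. Smad3, which carries the TGF-beta signal, fell to 127.9 CPM ± 2.95 in ETV4 KO, against 199.2 CPM ± 1.95 in controls (SD, n = 3 each), with -0.64 (SE 0.034, adjusted p = 2.23e-16 by edgeR). Creb3l2, a membrane-bound factor that drives genes of procollagen export, had -0.94 (SE 0.063, adjusted p = 4.58e-14 by edgeR), while its relative Creb3l1, named after its value was seen, had 0 counts in every library.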
